A study of Mus musculus with 6 samples.

Results

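The genes described here are 10 members of the WNT pathway in the developing mouse small intestine, out of 24568 gene symbols in the deposited count matrix. They were chosen by name: the ligands Wnt4, Wnt5a, Wnt5b and Wnt2b, the receptors Ror1 and Ror2, and the feedback and target genes Axin2, Lef1, Nkd1 and Lgr5. All 10 symbols were found in the matrix. The study profiled single cells of small intestine from C57/BL6 embryos carrying Pdgfra-H2BGFP, an allele that puts a green nuclear protein under control of the Pdgfra locus, and every sample came from such embryos. The 6 samples fall into 4 groups. Ages E15.5 and E16.5 were combined in 2 samples of unselected live cells and 1 sample of enriched cells, and the same was done for E13.5, E14.5 and E18.5. Gates for live cells took those without DAPI or Ter119 signal, and gates for enrichment took those with CD31, CD45, Epcam or high PDGFRa GFP. Replicates were pooled, 4 for E13.5, 3 for E14.5 and 2 for every later age.

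The matrix holds 13127 cells, of which 12688 had at least 1000 detected genes and at most 5% mitochondrial UMIs (unique molecular identifiers, which count captured transcripts) and were kept. Cell barcodes carry 1 of 6 suffixes, and no label ties a suffix to a sample. The suffixes therefore define technical sets, called A1, A2 and A3 for the first ending and B1, B2 and B3 for the second, and the matrix was treated as a single sample without replicates. No test between conditions or ages was possible, and all intervals below are 95% intervals of counting error alone. Kept cells numbered 1185 to 2518 per set, with median UMIs per cell of 12174, 13588 and 7073 in A1 to A3 and 4190, 4119 and 3553 in B1 to B3. Any pair of sets shared 0 to 3 barcodes. Ending A had counts in 21351 genes and ending B in 18222, and their depths differ, so levels are compared only within an ending. Mesenchyme markers such as collagens summed to between 3207 and 6419 CPM in every set (CPM: UMIs of a gene per 1000000 UMIs of all genes). The 7 epithelial markers summed to 303.9 CPM in A3 against 41.7 to 44.1 in A1 and A2, and to 85.6 in B3 against 29.2 to 32.9 in B1 and B2, with none of the 7 at 0 in any set. The 6 endothelial and 6 blood markers were likewise higher in A3 (58.5 and 114 CPM) than in A1 (7.21 and 14.9). No cluster took an epithelial or endothelial name under the naming rule given with the processing.

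WNT proteins are secreted lipid-modified signals. In the branch that acts through beta-catenin, binding to Frizzled and LRP receptors lets beta-catenin reach LEF and TCF factors, which switch on target genes that include the brakes Axin2 and Nkd1. In another branch, ligands such as Wnt5a bind Ror receptor kinases and direct cell polarity and tissue outgrowth. In the fetal gut, Wnt5a and Ror2 are known for their part in elongation of the tube, and PDGFRA-high mesenchyme lies under the epithelium, where it gathers at the sites of emerging villi.

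The sequences upstream of the members are shown because LEF and TCF factors, which act in the feedback arm of the pathway, recognise DNA around the core CTTTG. Promoters were read from RefSeq on GRCm38.p6 (the build also called mm10), and 8 of the 10 members have an entry, while Wnt5a and Lgr5 have none. The core CTTTG, or its reverse complement CAAAG, occurred in the 250 bases before at least 1 start site of 4 of those 8 members (Wnt5b, Ror1, Ror2 and Lef1). Of all 32851 promoters in the table, 48.58% had a match. The 2 measures are unlike, since a gene with several promoters can match more easily. Lef1 has 4 entries, all 4 with a match, and Wnt5b has 3, of which 2 match. The longer form CTTTGAT or its reverse complement ATCAAAG, which contains the core, occurred in 3.205% of all promoters and among the members upstream of 1 start site of Wnt5b. In the stretches that follow, written 5′ to 3′ along the gene's strand, capitals mark the core named for each stretch. The Wnt5b stretch also holds CAAAG, left in lower case, 88 bases before the start.
Wnt5b: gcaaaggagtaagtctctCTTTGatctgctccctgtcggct
Ror2: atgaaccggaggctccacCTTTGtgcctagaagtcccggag
Lef1: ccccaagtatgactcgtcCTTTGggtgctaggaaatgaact
Wnt4: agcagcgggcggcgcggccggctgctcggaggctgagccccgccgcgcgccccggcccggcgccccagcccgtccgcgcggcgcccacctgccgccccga
The Wnt5b stretch lies at chr6:119449435-119449475 on the minus strand, with the core 71 bases before the start site at 119449386. The Ror2 stretch lies at chr13:53286302-53286342 on the minus strand, with the core 200 bases before the start site. The Lef1 stretch lies at chr3:131110118-131110158 on the plus strand, with the core 161 bases before the start site at 131110297. The Wnt4 stretch holds the last 100 bases before its start, chr4:137277535-137277634 on the plus strand. It is 88% G and C against a median of 55% for all promoters before their starts, and none of the 250 bases before the Wnt4 start holds the core. These matches describe letters only, and no binding was measured.

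Among the members, Wnt4 and Wnt2b differed at least 2-fold between set A3 and sets A1 and A2, and Wnt4 and Wnt5b between set B3 and sets B1 and B2. With at least 50 UMIs over the sets compared, 8 members could be judged in ending A, of which 1 was past the fold higher (Wnt4) and 1 lower (Wnt2b). Over all genes judged the same way, 13.6% were at least 2-fold higher and 9.03% at least 2-fold lower in A3. In ending B, 7 members could be judged, of which 2 were past the fold higher and 0 lower, beside 9.76% and 7.76% of all genes. The median log2 ratio of the members was 0.06 in A, against 0.00 for all genes, and 0.35 in B, against 0.13. Sets 1 and 2 differed little from each other: of all genes, 0.531% were at least 2-fold higher and 0.0822% lower in A1 than in A2, and 0.0895% and 0.0716% in B1 than in B2.

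**Figure D1:**
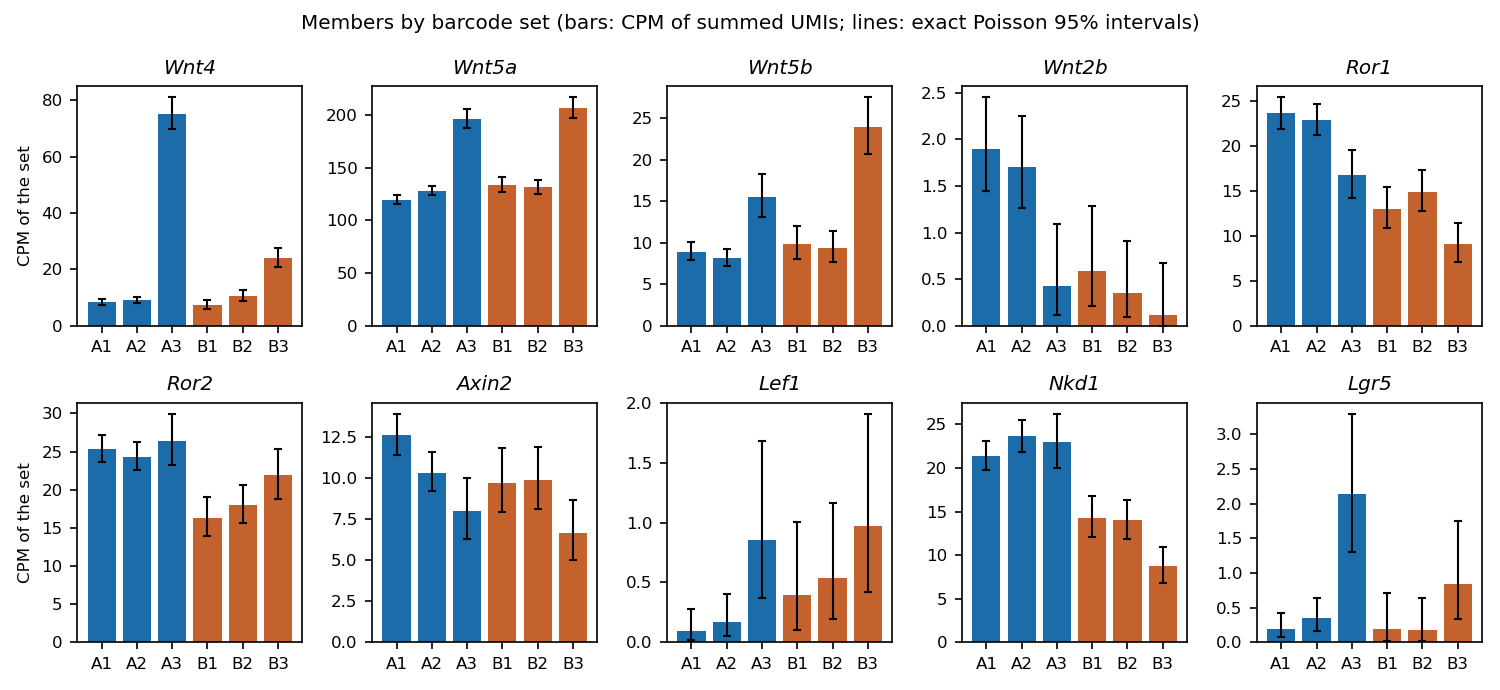
Level of each member (CPM of the UMIs summed over a set, linear axes from 0) in the 6 barcode sets, blue for ending A and orange for ending B. Lines are exact Poisson 95% intervals. Wnt4 stands at 75.2 CPM in A3 beside 8.49 and 9.06 in A1 and A2, whereas Ror2 lies between 24.3 and 26.4 in those sets.

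Wnt4, a ligand known from kidney, gonad and muscle development that can act through either branch of the pathway, was low in A1 (8.49 CPM), A2 (9.06), B1 (7.48) and B2 (10.8). It stood at 75.2 CPM in A3 and at 23.9 in B3. A3 and B3 lay above the other sets of their ending, and their counting intervals did not overlap. The difference was 8.58-fold in A (7.65 to 9.63) and 2.60-fold in B (2.12 to 3.18). At a matched depth of 2000 UMIs per cell, 14.3% of cells in A3 held a Wnt4 UMI (12.4% to 16.4%), against 2.03% in A1 and 2.11% in A2. In ending B the matched shares were 1.36% in B1, 2.11% in B2 and 4.25% in B3. Without thinning they were 5.75%, 6.13% and 29.5% in A1 to A3 and 3.06%, 3.97% and 6.72% in B1 to B3. In the enteric glia-like cells of ending B, a class named for another lineage, 2 of 35 cells held a Wnt4 UMI at matched depth. This was 5.71%, with an interval of 0.700% to 19.2%, at a median of 8109 UMIs before thinning. These cells are too few to set a background level, and the interval holds the shares of all 3 sets of ending B. The epithelial marker sum given above moved with Wnt4 across the sets, and its part in the set difference was not tested.

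Wnt5a, the ligand known for outgrowth of limb, face and gut, was detected in all sets and differed less. Its levels were 119.8 CPM in A1, 128 in A2 and 196 in A3, and 133.7 in B1, 131.8 in B2 and 206.6 in B3. A3 and B3 were again the highest of their endings, by 1.58-fold in A (1.504 to 1.667) and 1.56-fold in B (1.47 to 1.65), without reaching 2-fold. At matched depth, 18.3%, 20.4% and 30.1% of cells in A1 to A3 and 21.6%, 22.5% and 30.2% in B1 to B3 held a Wnt5a UMI. Before thinning, the share was 56.8% in A1, 61.5% in A2 and 58.1% in A3, so the higher share of A3 appeared only at matched depth. The glia-like cells held a Wnt5a UMI in 14.3% of 35 cells at matched depth (4.81% to 30.3%) and in 40% before thinning. Their level was 78.9 CPM (50 to 118.3), so they set no background level for Wnt5a.

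Wnt5b, the closest relative of Wnt5a and a ligand studied in cartilage, stood at 8.94 CPM in A1, 8.19 in A2 and 15.6 in A3, and at 9.84, 9.44 and 23.9 in B1 to B3. A3 and B3 were the highest, by 1.81-fold in A (1.498 to 2.182) and 2.49-fold in B (2.03 to 3.04). At matched depth the shares of cells were 1.499%, 1.92% and 2.71% in A1 to A3 and 2.17%, 1.71% and 5.16% in B1 to B3, beside 2.86% of the glia-like cells, which was 1 cell. In ending A the intervals of A2 (1.37% to 2.60%) and A3 (1.86% to 3.80%) overlapped, and in ending B that of B3 (4.27% to 6.17%) lay above the others.

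Wnt2b, a mesenchymal ligand of the beta-catenin branch, had few UMIs. Its counts were 59 in A1, 49 in A2 and 4 in A3, and 6, 4 and 1 in B1 to B3. The level was 1.90 CPM in A1, 1.70 in A2 and 0.43 in A3, a log2 ratio of -2.08 (-3.98 to -0.68). Ending B had too few UMIs to judge. In B3, 1 cell (0.0454%) held a Wnt2b UMI before thinning and 0 at matched depth, where a count of 0 allows a share of up to 0.137% of cells with a UMI.

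Of the receptors, Ror1 was lower in A3 and B3 and Ror2 was not. Ror1 stood at 23.6 CPM in A1, 22.8 in A2 and 16.7 in A3, and at 12.99, 14.9 and 9.07 in B1 to B3. A3 and B3 were the lowest of their endings, with log2 ratios of -0.47 (-0.72 to -0.23) and -0.62 (-1.01 to -0.25), short of 2-fold. Ror2, the family member best known as a Wnt5a receptor, stood at 25.4, 24.3 and 26.4 CPM in A1 to A3 and at 16.3, 17.98 and 21.9 in B1 to B3. Its log2 ratio was 0.09 in A, with an interval that spans 0 (-0.11 to 0.28), and 0.35 in B (0.08 to 0.61). At matched depth, 2.01% to 4.75% of cells per set held a Ror1 UMI and 2.85% to 5.59% a Ror2 UMI.

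The feedback genes did not move as a group. Axin2, a scaffold of the complex that destroys beta-catenin, was lower in A3 and B3: 12.6, 10.3 and 7.99 CPM in A1 to A3, and 9.74, 9.88 and 6.65 in B1 to B3. The log2 ratios were -0.53 (-0.89 to -0.18) and -0.56 (-1.02 to -0.13), short of 2-fold in both. Nkd1, which binds Dishevelled and dampens WNT signals, stood at 21.4, 23.6 and 22.9 CPM in A1 to A3, with A3 between the other sets. In ending B it stood at 14.3 in B1, 13.98 in B2 and 8.71 in B3, and B3 was the lowest, with a log2 ratio of -0.70 (-1.09 to -0.32). The ratio in ending A was 0.03 (-0.19 to 0.24).

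Lef1, a DNA-binding partner of beta-catenin, and Lgr5, a receptor for R-spondins and a marker of intestinal epithelial stem cells, were near the limit of detection. Lef1 had 3, 5 and 8 UMIs in A1 to A3 and 4, 6 and 8 in B1 to B3. Lgr5 had 6, 10 and 20 UMIs in A1 to A3 and 2, 2 and 7 in B1 to B3. Neither reached the 50 UMIs needed to be judged. Their levels in A3 were 0.85 and 2.13 CPM, beside 0.13 and 0.27 in A1 and A2 together. Epcam, an epithelial surface protein, stood at 87.7 CPM in A3 and 13.8 in A1, and its part in the Lgr5 counts was not tested.

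**Figure D2:**
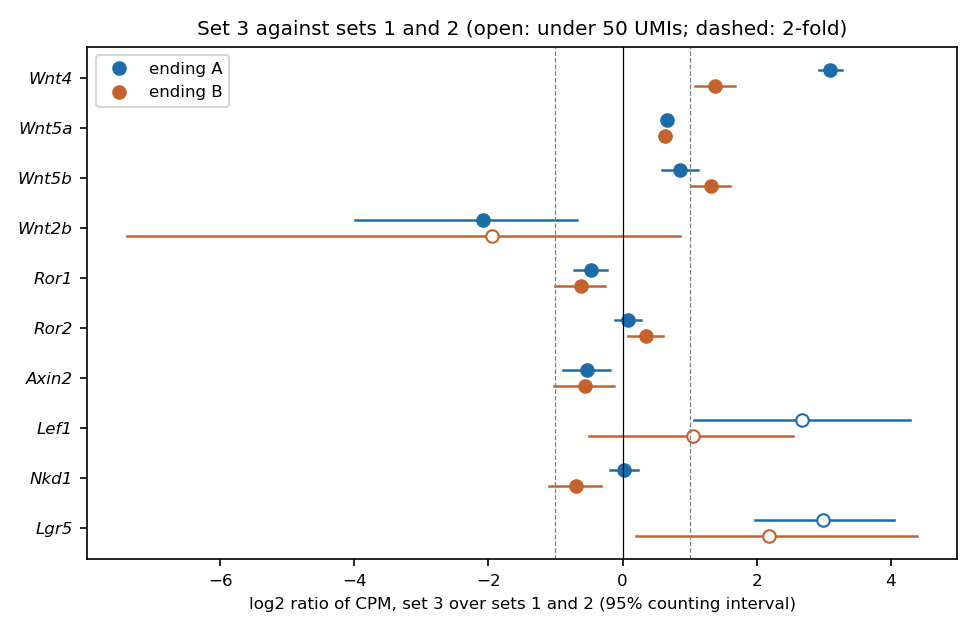
Log2 ratio of CPM in set 3 over sets 1 and 2 for each member, with exact conditional binomial 95% intervals, in endings A (blue) and B (orange). Dashed lines mark 2-fold, and open points mark members with fewer than 50 UMIs. Wnt4 lies to the right of the 2-fold line in both endings (3.10 and 1.38), and Wnt5a lies at 0.66 and 0.64.

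Cells were then clustered within each ending with the members and the other listed WNT pathway genes left out. Member levels were thus not used to draw the clusters. A cluster was called PDGFRA-high-like when at least 3 of 7 markers of that class (Pdgfra, Foxl1, F3, Sox6, Bmp4, Bmp5 and Bmp7) were 2-fold higher than in the other cells. This gave clusters A00, A10 and A11 in ending A and B01, B02, B05 and B06 in ending B. Pdgfra itself was 6.85-fold higher in A00 but 1.53-fold in B05 and 1.76-fold in B06. PDGFRA-high-like cells were 1.98% of A1, 1.87% of A2, 87.5% of A3, 15.54% of B1, 16.6% of B2 and 87.2% of B3.

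Comparing all PDGFRA-high-like with other mesenchyme-like cells, 1 of 8 members in ending A was past the fold higher (Wnt4) and 1 lower (Wnt2b), beside 14.5% and 12.0% of all genes. In ending B, 2 of 7 were higher (Wnt4 and Wnt5b) and 1 lower (Ror1), beside 11.1% and 8.46%. The classes largely follow the sets, so these counts are not independent of those between sets. A3 held 1037 of the 1125 PDGFRA-high-like cells of ending A and 31 of the 3744 others. B3 held 1921 of 2686 and 201 of 3537 in ending B. The log2 ratio of Wnt4 was 3.61 in ending A (3.43 to 3.80) and 1.70 in ending B (1.37 to 2.03). Within the individual sets, where the mix of cells is held apart, Wnt4 was higher in PDGFRA-high-like cells in 6 of 6 sets, with log2 ratios from 1.21 to 4.36. In A2, where PDGFRA-high-like cells were few, Wnt4 stood at 151 CPM in 39 such cells against 7.33 in 1745 other mesenchyme-like cells. In B2 it stood at 20.9 CPM against 9.08.

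Wnt5a was also higher in 6 of 6 sets, at log2 ratios of 0.49 to 1.01. Wnt5b was higher in 5 sets, and in B3 it was 22.8 CPM in PDGFRA-high-like and 33.0 in other mesenchyme-like cells, with an interval of the log2 ratio that spans 0 (-1.13 to 0.11). Of those 201 other cells, 94 were of cluster B09, which held 12 of the 27 Wnt5b UMIs. In B3 the 7 class markers summed to 2207 CPM in B09, within the 1833 to 2623 of the PDGFRA-high-like clusters. Wnt5b stood at 36.3 CPM in B09 cells of B3, and at 46.1 and 27.2 in those of B03 and B04. Ror1 was lower in 6 of 6 sets (-1.27 to -0.34), but its intervals spanned 0 in A1 (-1.74 to 0.63), A2 (-2.94 to 0.31) and A3 (-1.504 to 1.14). Wnt2b was lower in 6 of 6 as well, on 0 to 2 UMIs in the PDGFRA-high-like cells of each set. Its intervals spanned 0 in every set but A3, where each class held 2 UMIs. Ror2 was higher in 2 and lower in 4, Nkd1 higher in 2 and lower in 4, and Axin2 higher in 1 and lower in 5. Wnt4, Wnt5a and Ror1 thus had 1 direction in all 6 sets, whereas Wnt5b, Ror2, Nkd1 and Axin2 did not. For Wnt2b the UMIs were too few to read a direction by set. When Pdgfra itself was required at 2-fold, a definition chosen after seeing the data, B05 and B06 left the class, and the ending B log2 ratio of Wnt5b moved from 1.33 to 0.06, that of Wnt5a from 0.90 to 0.22 and that of Ror1 from -1.09 to -0.73, so that only Wnt4 stayed past the fold there, at 2.102.

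**Figure D3:**
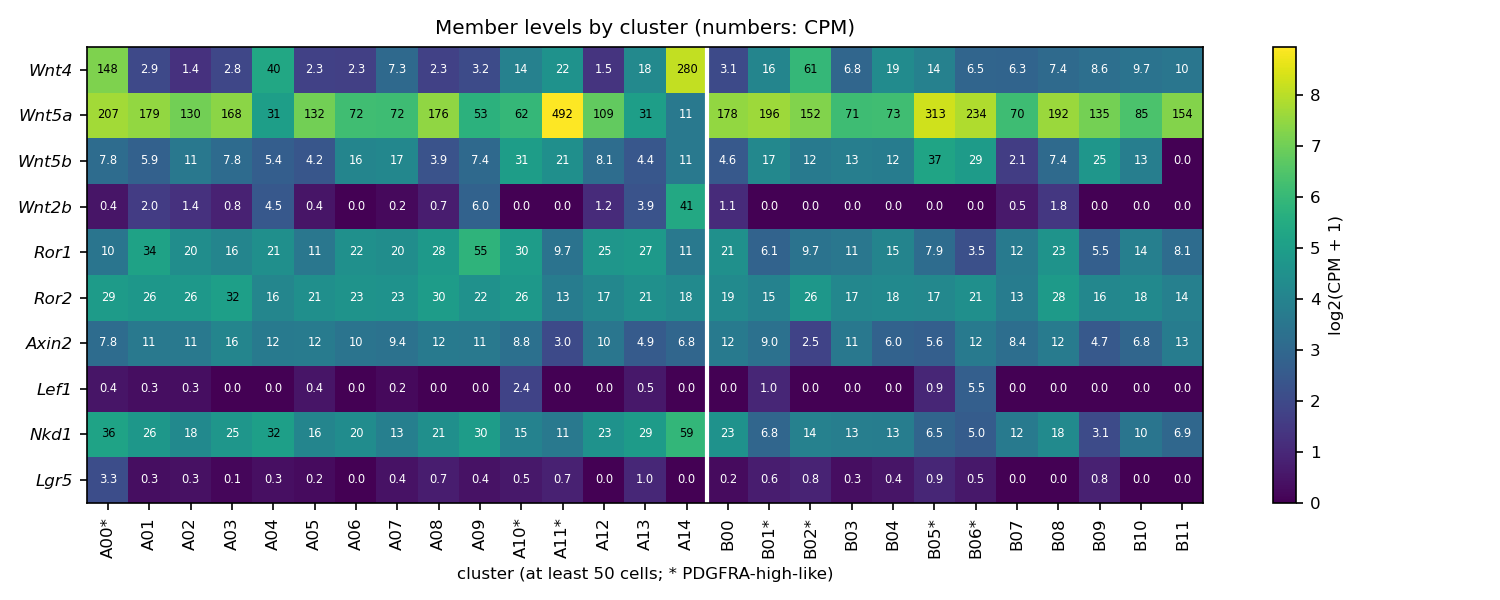
Level of each member (number in each cell: CPM of summed UMIs; colour: log2 of CPM + 1) in the 15 clusters of ending A and the 12 of ending B with at least 50 cells, the endings separated by a white line. Asterisks mark PDGFRA-high-like clusters. Wnt4 peaks in A14, A00 and B02, and Wnt5a in A11 and B05.

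The PDGFRA-high-like clusters did not share 1 ligand pattern. Wnt4 was concentrated in A00 (147.9 CPM, 733 cells, led by Slco2a1 and Npnt) and in B02 (61.4 CPM, 706 cells, with the same 2 genes among its leading 10). It stood at 22.4 CPM in A11, 14.2 in A10, 15.8 in B01, 14.4 in B05 and 6.55 in B06. In A00 the level was 181.9 CPM in A1, 263.3 in A2 and 141.5 in A3, so the few A00 cells of A1 and A2 were not below those of A3. In B02 it was 60.6 (B1), 53.1 (B2) and 63.0 (B3), with overlapping intervals. In cells of set A3, the epithelial marker sum was 360.6 CPM in A00, 350.3 in A11, 231.1 in A10 and 226.2 in A07. Wnt4 in the same cells stood at 141.5, 22.7, 15.2 and 7.51 CPM, respectively.

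Wnt5a peaked in other clusters of the same class. It reached 492.3 CPM in A11 (195 cells, led by Calb1 and Opcml) and 313.1 CPM in B05 (547 cells, led by Kcnk13 and Gjb2), followed by A00 at 207.2 and B06 at 234.1. In B05 the level was 281 CPM in B1, 288.3 in B2 and 324.6 in B3, with overlapping intervals. At matched depth 55.7% of A11 cells and 44.0% of B05 cells held a Wnt5a UMI, against 29.3% in A00 and 22.4% in B02. The order was reversed for Wnt4, with 23.9% of A00 and 9.57% of B02 cells against 3.09% of A11 and 3.30% of B05 cells.

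Wnt5b followed neither ligand exactly. Over all cells of a cluster it was highest in A10 (30.8 CPM, 23.6 to 39.4), followed by A11 (20.9, 13.9 to 30.2) with an overlapping interval, and in B05 (36.6 CPM) and B06 (29.2). Within A3, it stood at 31.0 CPM in A10 (23.5 to 40.2), 29.2 in the unnamed cluster A07 (20.4 to 40.6) and 14.8 in A11 (8.63 to 23.7). In the Wnt4-rich clusters A00 and B02 it stood at 7.85 and 11.8 CPM. B05 had the highest level of both Wnt5a and Wnt5b in ending B.

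**Figure D4:**
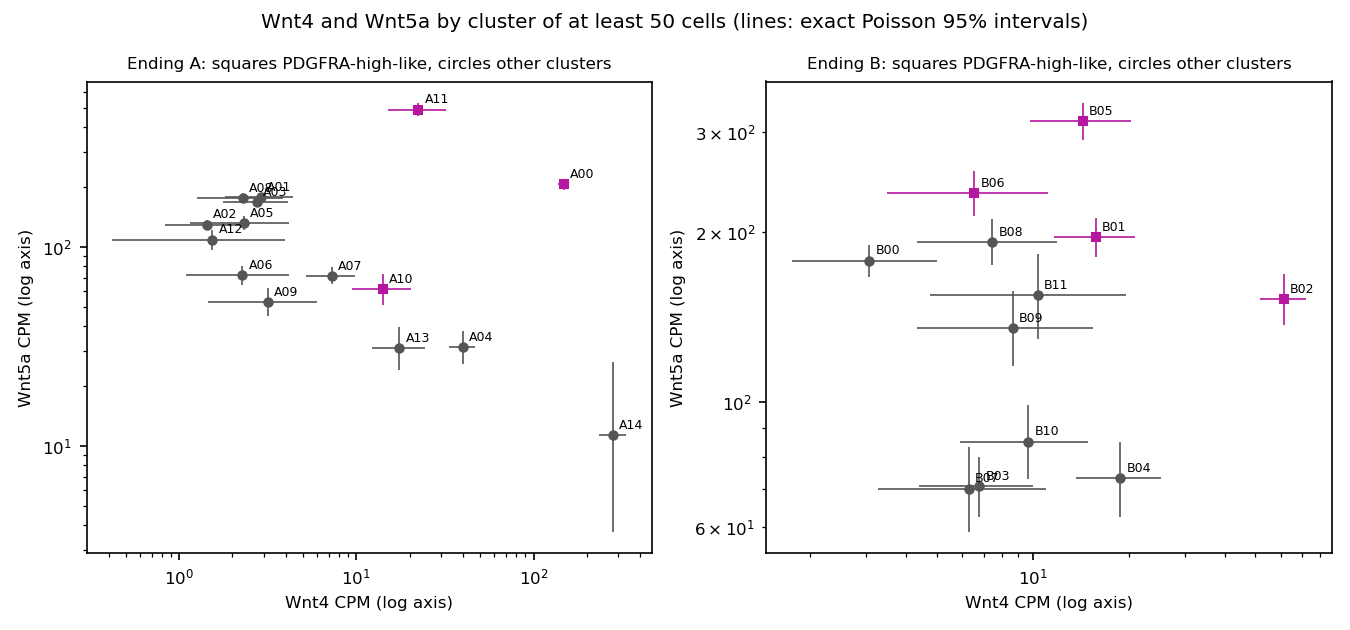
Wnt4 against Wnt5a level (CPM, both axes logarithmic) in each cluster of at least 50 cells, with exact Poisson 95% intervals. Squares are PDGFRA-high-like clusters and circles all others. Wnt4-rich A14 lies at the bottom right (280.3 and 11.4 CPM) and Wnt5a-rich A11 at the top (22.4 and 492.3 CPM).

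A small cluster outside the PDGFRA-high-like class also had high Wnt4. Cluster A14 (56 cells, led by Igfbp3 and P2rx1, Pdgfra at 0.38-fold of the other cells) stood at 280.3 CPM of Wnt4 (232.9 to 334.4), with 289.6 in A1 (220.5 to 373.6) and 271.6 in A2 (205.7 to 351.9). Within those sets A00 stood at 181.9 (122.7 to 259.7) and 263.3 (196.6 to 345.3), so the intervals of the 2 clusters overlapped in both. At matched depth 41.1% of its cells held a Wnt4 UMI. The same cluster had the lowest Wnt5a of ending A, 5 UMIs or 11.4 CPM (3.70 to 26.6). It also had the highest Wnt2b, with 18 UMIs (41.0 CPM; 44.2 in A1 and 38.1 in A2) against 5.98 CPM in the next cluster, A09. Nkd1 was highest there as well, at 59.2 CPM (38.7 to 86.8), above A00 at 35.7 (30.6 to 41.5), although these intervals overlap. Clusters A04 and A13, both led by genes that include Col6a5 and Lepr, had Wnt4 at 39.8 and 17.5 CPM. In the histone-rich cluster A02, Wnt4 was at its lowest, 1.43 CPM. There, 2.28% of 703 cells held a Wnt4 UMI before thinning and 0 at matched depth, which allows a share of up to 0.427% of cells with a UMI at that depth and sets no limit on cells that express the gene.

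Over clusters, Pearson correlations of log2(CPM + 1) between Wnt4 and Wnt5a were -0.40 in the 15 clusters of ending A and 0.05 in the 12 of ending B. They were 0.16 and 0.21 between Wnt4 and Wnt5b, and 0.04 and 0.28 between Wnt5a and Wnt5b. These are descriptions over clusters that share libraries and depth.

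Receptor levels varied less over clusters than those of Wnt4. Ror1 was highest in A09, whose leading genes include Dpt and Aspn, at 55.3 CPM (46.9 to 64.6), followed by A01 at 34.3. In ending B the highest levels were 23.2 CPM in cycling cluster B08 and 21.5 in B00, with overlapping intervals. Ror1 was low in Wnt5a-rich A11 (9.70 CPM, 5.16 to 16.6), A00 (10.1) and A05 (10.8), whose intervals overlap, and in B06 (3.52 CPM). Ror2 ranged only from 12.7 to 32.4 CPM in ending A and from 12.6 to 28.5 in ending B. In ending A the highest level was in A03 and the lowest in A11, whose interval (7.39 to 20.3) overlapped those of A04 and A12.

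Axin2 ranged from 2.98 CPM in A11 to 15.9 in A03 and from 2.52 in B02 to 12.7 in B11. Nkd1 ranged from 11.2 CPM in A11 to 59.2 in A14 and from 3.14 in B09 to 22.6 in B00. In A00, Nkd1 was second highest of its ending while Axin2 was 7.85 CPM (5.55 to 10.8), an interval that holds the cluster median of 10.4. Both genes were lowest in A11 among clusters of ending A with at least 50 cells, with intervals that overlapped those of the next lowest clusters, A13 for Axin2 and A07 for Nkd1. Lef1 was found mainly in B06, where 11 of its UMIs gave 5.54 CPM (2.77 to 9.91), and in A10 with 5 UMIs. Lgr5 was highest in A00, where 16 UMIs gave 3.31 CPM (1.89 to 5.37).

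By a fixed measure, the genes most like each member were those with the highest of the lower of 2 Pearson correlations of log2(CPM + 1), over the 15 clusters of A and the 12 of B, among 7241 candidates with at least 20 CPM in a cluster of both endings. For Wnt4 these were Sri (0.89 in A and 0.86 in B), Rhot1 and Inhba. For Wnt5a they were Fst (0.88 and 0.80), which encodes the activin antagonist follistatin, Sc5d and Fam162a. For Wnt5b they were Nkd2 (0.86 and 0.82), the relative of Nkd1, then Arhgap31 and Tanc1. Rab30, Plce1 and Mpdz came first for Ror1, Cpe, Dcaf7 and Pias4 for Ror2 (0.63 and 0.71 for Cpe), and Tbxa2r, Cdc42ep3 and Adamts1 for Nkd1 (0.90 and 0.87 for Tbxa2r). Wnt2b, Axin2, Lef1 and Lgr5 did not reach 20 CPM in both endings and were not matched. Such correlations over few clusters that share libraries are descriptions only.

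Levels within a set were also compared by Pdgfra and by cycling transcripts, at 2000 UMIs per cell. Between cells with at least 2 and with 0 Pdgfra UMIs, Wnt5b was higher in 6 of 6 sets, but on 3 to 26 UMIs in the Pdgfra-rich cells and with overlapping intervals in every set. Wnt4 and Wnt5a were higher in 5 of 6. The difference in Wnt4 was largest in A2. There, it stood at 10.0 CPM with 0 Pdgfra UMIs (6.91 to 14.1), 16.8 with 1 and 71.4 with 2 or more (36.9 to 124.8, 84 cells). It was 57.0 against 105.8 in A3 and 17.4 against 36.3 in B3, without overlap, and 11.5 against 26.9 in A1 and 9.65 against 31.0 in B2, where the intervals overlapped. In B1, the exception for Wnt4, 99 cells with at least 2 Pdgfra UMIs held 1 Wnt4 UMI. Ror1 and Nkd1 were lower in 5 of 6 sets. In A1 this rested on 5 UMIs of Ror1 and 6 of Nkd1 in the Pdgfra-rich cells, and in A2 on 1 of each. The intervals overlapped in both of these sets for both genes, and in A3 for Ror1.

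Wnt4 was lower in cells with a UMI of the cycling genes Mki67 or Top2a than in cells with none, in 6 of 6 sets. In A1 it was 5.25 CPM (2.71 to 9.17) against 20.8 (15.6 to 27.0), and in A2 5.17 (2.48 to 9.51) against 21.0 (15.4 to 27.9). In A3, where most cells are PDGFRA-high-like, the difference was small, 86.5 against 97.6 CPM, with overlapping intervals. The remaining differences of Wnt4 in B1, B2 and B3 (4.24 against 8.30, 8.34 against 12.7, and 11.7 against 27.6 CPM) also had overlapping intervals. Nkd1 was lower in cycling cells in 5 of 6 sets and Axin2 higher in 5 of 6. For Axin2 the levels were 12.3 against 11.7 CPM in A1, 9.90 against 8.96 in B1 and, the widest gap, 16.1 (10.4 to 23.7) against 8.97 (6.09 to 12.7) in B2, and the intervals overlapped in every set.

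Co-detection in single cells was examined at 2000 UMIs per cell, since a deeper cell holds more UMIs of every gene. The number of cells with UMIs of both genes was set against the number that the shares of each gene within a set would give by multiplication. Of 12647 cells, 439 held Wnt4, 2936 held Wnt5a and 313 held Wnt5b. Wnt4 and Wnt5a occurred together in 105 cells, against 115.5 from the product, a ratio of 0.91 (0.74 to 1.10). Wnt5b and Wnt5a occurred together in 88 cells against 78.8, a ratio of 1.12 (0.90 to 1.38). Neither interval leaves out 1.

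**Figure D5:**
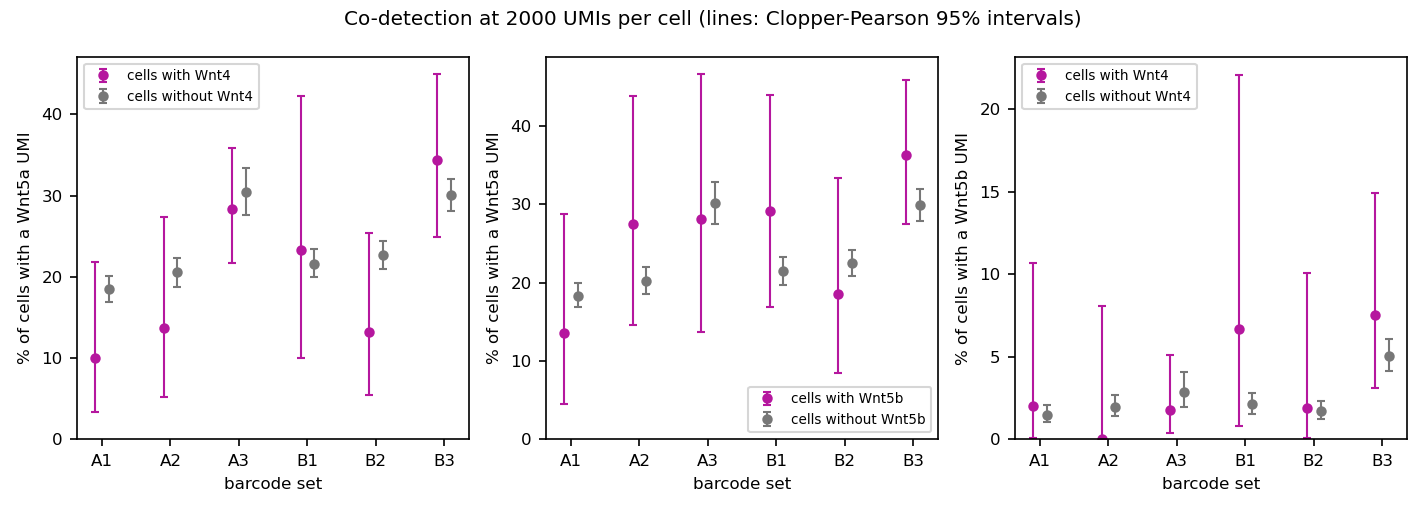
Share of cells with a UMI of the second ligand among cells with (purple) and without (grey) a UMI of the first, in percent, by barcode set at 2000 UMIs per cell, with Clopper-Pearson 95% intervals. For Wnt5a in A3, the share was 28.4% with and 30.4% without Wnt4, and every pair of intervals in the Wnt4 and Wnt5a panel overlaps.

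By set, Wnt5a was found in 10% of Wnt4-positive against 18.4% of Wnt4-negative cells in A1, 13.6% against 20.5% in A2, and 28.4% against 30.4% in A3. In ending B the shares were 23.3% against 21.6% in B1, 13.2% against 22.7% in B2, and 34.4% against 30.0% in B3. Wnt4-positive cells had the lower Wnt5a share in 4 of the 6 sets. Without thinning, 437 cells held both, against 492.6, a ratio of 0.89 (0.81 to 0.97). The gap lay mainly in A1 (53 against 80.7) and A2 (54 against 78.8), with 33 against 37.4 in B2. A3 (203 against 202.9), B1 (26 against 25.5) and B3 (68 against 67.3) lay near the product. Depth differs between unthinned cells.

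Within the Wnt4-rich clusters A00 and B02 the counts lay near the product: 45 cells with both Wnt4 and Wnt5a in A00, against 51.2, and 15 in B02 against 15.0. In Wnt4-rich A14, 2 of 56 cells held Wnt5a and both also held Wnt4, against 0.82 from the product, too few to compare. In B05, 22 cells held both Wnt5a and Wnt5b against 19.3. Wnt4 and Wnt5b were found together in 14 cells against 12.5 (ratio 1.12, 0.61 to 1.88), but this count changed with the random draw of UMIs, to a ratio of 0.18 in another draw, and no direction can be read from it. At matched depth, all 3 ligands were found together in 2 cells of A3 and 4 cells of B3, and in 0 cells of the other sets. Such cells hold both Wnt4 and Wnt5b, whose joint count changed with the draw, so no difference between sets can be read. Without thinning, where depth differs between cells, every set had such cells: 3, 6 and 19 in A1 to A3 and 2, 3 and 5 in B1 to B3. At matched depth, 57.8% of cells in A3 held none of the 3 ligands, 37.5% held 1 and 4.57% held 2, against 78.7%, 20.9% and 0.446% in A1. In B3 the shares were 63.8%, 32.9% and 3.11%, against 75.9%, 23.1% and 1.04% in B1.

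Wnt5a and Ror1 were found together in 72 cells against 90.3 from the product (ratio 0.80, 0.62 to 1.00), and Wnt5a and Ror2 in 142 against 125.2 (1.13, 0.96 to 1.34). In A1 a Ror2 UMI was found in 8.20% of Wnt5a-positive cells (5.84% to 11.1%) against 5.01% of Wnt5a-negative cells (4.10% to 6.05%). For Ror1 in A1, the shares were 2.44% (1.22% to 4.32%) and 4.71% (3.83% to 5.73%). Cells with Wnt5a and Ror1 lay below the product in A1 to A3 (11 against 19.4, 11 against 20.2 and 7 against 10.5). They lay near or above it in B1 to B3 (12 against 12.1, 15 against 14.8 and 16 against 13.3). Without thinning, where depth differs between cells, the ratio was 0.96 for Wnt5a with Ror1 (0.90 to 1.03) and 1.125 with Ror2 (1.06 to 1.19). In B1 and B2 the Ror2 share was lower in Wnt5a-positive cells, 1.88% against 3.11% and 2.84% against 3.81%, with overlapping intervals. Ror1 and Ror2 were found together in 23 cells against 18.2 (1.26, 0.80 to 1.89).

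Axin2 and Nkd1 shared 10 cells against 8.69 from the product, a ratio of 1.15 (0.55 to 2.12). Without thinning they shared 204 against 171.7 (1.19, 1.03 to 1.36), where depth differs between cells. Lef1 was found in 10 cells at matched depth, of which 1 held Axin2 and 2 held Nkd1, too few to compare.

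Of 83 other WNT pathway genes listed by role, 79 are in the matrix, and 59 in ending A and 53 in ending B had enough UMIs to be judged. In A3, 9 were past the fold higher and 8 lower, and in B3, 7 higher and 5 lower, beside 13.6% and 9.03% of all genes in A and 9.76% and 7.76% in B. The median log2 ratios were 0.11 and 0.31, near those of the members. Receptors past the fold went both ways. Fzd1 was lower in both endings, at 24.8 CPM in A3 against 58.2 in A1 and A2. In ending B it stood at 9.67 in B3 against 26.4 in B1 and B2. Fzd5 and Fzd6 were higher in both endings, though at low levels, 8.31 and 6.39 CPM in A3 and 5.08 and 5.44 in B3. Their log2 ratios were 1.71 in A and 1.63 in B for Fzd5, and 3.58 and 2.22 for Fzd6. Lrp5 was past the fold higher in ending B alone, at 1.09 against 0.93 in A. Wls, which escorts WNT ligands to the cell surface, stood at 164.2 against 129.2 CPM in A and 129.4 against 113.6 in B, short of the fold.

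Among transcription factors and co-repressors, Tcf7, a partner of beta-catenin related to Lef1, was higher at log2 ratios of 1.46 in A and 1.23 in B, and the co-repressor Tle1 at 1.89 and 1.84. Feedback and target genes went both ways. Nkd2 was higher (1.87 and 1.79) where Nkd1 was not, and Tnfrsf19, also called Troy, was higher at 3.02 and 2.58. Myc was lower, at -1.56 and -1.29. Of the secreted modulators, the R-spondin Rspo3 and the antagonist Dkk2 were lower in both endings, at -2.53 and -2.12 for Rspo3 and -2.50 and -3.82 for Dkk2. None of the 8 planar polarity genes judged, of 10 listed, was past the fold in both endings, and Vangl1 was in ending A alone, at 1.67 against 0.81 in B.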

How the data were processed

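The authors deposited 1 matrix of raw UMI counts per gene and cell for all 6 samples. Libraries were made with MULTI-seq lipid barcodes and 10x 3' chemistry, per the labels' protocols, with 35000 cells loaded per well. The submitters' processing notes name Cell Ranger 2.1.1, Seurat and mm10, and no order of steps. Suffixes of cell barcodes match no label, so the matrix was treated as 1 sample and no count model was fitted.

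Cells under 1000 genes (108) or over 5% mitochondrial UMIs (367) were left out, counted separately. CPM is the summed UMIs of a gene over the summed UMIs of the pool. Intervals (95%) are exact Poisson for CPM, exact conditional binomial for ratios and Clopper-Pearson for shares, and a count of 0 was given a limit of 3 counts. They were computed with scipy 1.17.1, and the ratio and thinning steps were tested on simulated data. Thinning drew 2000 UMIs per cell without replacement and left out 1 to 13 cells per set. Clustering used scanpy 1.11.5 and leidenalg 0.10.2 (2000 variable genes, 30 components, 15 neighbours, resolution 1), without members, listed pathway genes or mitochondrial genes. A cluster took another lineage's name with at least 3 of that lineage's markers at 4-fold and at least 1 among its leading 10 genes. It was called other mesenchyme-like where 3 or more of the 5 mesenchyme markers reached 100 CPM. Clusters A00, A10 and A11 had 6, 4 and 5 of the 7 epithelial markers at 2-fold, but none was named for that lineage. No doublet caller was run. Instead, co-detection was repeated without the 5% deepest cells.

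All members are named. Pathway genes are named where they passed 2-fold in the same direction in both endings with at least 20 CPM. Fzd5, Fzd6, Lrp5, Wls and Vangl1 fall outside that rule and were chosen after their values were seen. Members, lists and rules were chosen with earlier results of these data known.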

Additional observations from a re-analysis of the deposited data

How the results depend on the processing

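No paired analysis was possible because no label assigns cells to samples. Members past the fold in set A3 numbered 3 higher at 1.5-fold and 3 without a minimum of summed UMIs (1 as reported), beside 22.1% and 20.7% of all genes, and 0 lower with at least 5 CPM, beside 5.91%. In set B3 they numbered 0 higher at 3-fold and 4 without the minimum (2 as reported), beside 3.65% and 17.1% of all genes, and 2 lower at 1.5-fold and 1 without the minimum (0 as reported), beside 13.8% and 17.9%. Other pathway genes without the minimum numbered 19 higher and 15 lower in A3 and 14 lower in B3, beside 20.7%, 21.5% and 17.9% of all genes. With the top 10% of cells by Pdgfra as the high class, 2 members were past the fold higher in ending A and 1 in ending B, beside 15.3% and 5.99% of all genes, and 0 lower in B, beside 8.79%. With Pdgfra itself required at 2-fold, chosen after seeing the data, ending B had 1 higher and 0 lower, beside 7.83% and 7.52%, and at clustering resolution 0.5 it had 2 lower, beside 6.68%. The class ratio in ending B then moved, with Pdgfra required, to 0.22 for Wnt5a and 0.06 for Wnt5b on the log2 scale, and to 2.102 for Wnt4. At 1500 UMIs per cell the co-detection ratio was 1.91 for Wnt4 with Wnt5b and 0.51 for Axin2 with Nkd1, and another draw gave 0.18 for Wnt4 with Wnt5b. With at least 2 UMIs required in unthinned cells, the log2 ratio of the Wnt5a share of A3 over A1 and A2 was -0.061. Of all recomputed values, 153 for single members and 66 for counts and co-detection moved by less than their counting interval, or by less than 1.5 times. Another 19 for single members moved by more, among them the class ratios of Wnt5a, Wnt5b and Wnt4 given above. A further 19 for counts and co-detection also moved by more. The direction reversed for 1 value of a single member, the Wnt5a share with at least 2 UMIs required. A change of direction was recorded only for values whose reported interval left out 0. The Wnt2b class ratio in ending A has no value for the top 10% of cells, which held none of its UMIs. The cause of these shifts was not tested, beyond the wider or narrower set of genes or cells. Depth limits Lef1, Lgr5 and Wnt2b, which had at most 59 UMIs in a set.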
